A study of Equus caballus with 4 samples.

Results

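Excitation-contraction coupling is the step by which an action potential in the muscle membrane releases calcium from the sarcoplasmic reticulum. In the t-tubule, a voltage sensor built around *CACNA1S* opens the release channel *RYR1*, calsequestrin (*CASQ1* and *CASQ2*) buffers calcium inside the store, triadin (*TRDN*) and junctophilin (*JPH1*) hold the junction together, and the pumps *ATP2A1* and *ATP2A2* return calcium to the store. In differentiating muscle cells most of these genes are switched on as myoblasts fuse into myotubes, whereas *ATP2A2* is used by most cells.

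The ratios of 10 coupling genes were read from 4 two-colour arrays with 60-base probes. By the gene symbol in the files, 11 probes of 6 genes were found (*CACNB1*, *CACNG1*, *ATP2A1*, *ATP2A2*, *CASQ1* and *TRDN*). The other 4 genes (*RYR1*, *CACNA1S*, *CASQ2* and *JPH1*) had no probe under their symbol, but the description column named them for a further 24 probes, which carried only a transcript identifier as gene name. These were added after the files had been seen, giving 35 probes of 10 genes among 43603 non-control probes. Of the 35 probes, 24 were bright enough to be tested and 11 were not.

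The cells were equine satellite cells (ESC) from the m. semitendinosus of 6-month-old stallions, harvested on day 3 of differentiation. HMB is made in the body from leucine. HMB-treated cells had 50 µM of it for 24 h and 3 mM H2O2 for the final 1 h, and control cells had the peroxide alone, so both groups were exposed to H2O2. According to the methods, 1 culture was chosen for its viability and fusion index, so the replicates may share a donor and the p-values then measure the spread between these samples only. On each array the HMB-treated RNA was labelled with Cy5 and the control RNA with Cy3. The dyes were never swapped, so treatment and dye cannot be told apart, and all 4 labels number the control as replicate 1, so it may be 1 RNA. Each array was 1 replicate, and a log2 ratio above 0 means more signal with HMB.

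Between 57.6% and 60.6% of spots were well above background in Cy3 and between 55.2% and 61.8% in Cy5. The ratios of the arrays correlated with a Pearson r of 0.84 to 0.92 over the tested probes. Of 13 skeletal muscle markers, 12 were tested and *PAX7*, a marker of quiescent satellite cells, was too dim. Desmin, *MYOD1*, *MYOG* and the other 9 were well above background in the control channel on all 4 arrays. A gene was called when its adjusted p in limma was at most 0.05 and its fold change (FC) at least 1.3. By that rule 28.6% of the 24669 tested probes were called, 16.4% lower and 12.1% higher with HMB.

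The probes that carried the main values are shown first, since each gene rests on 1 to a few such stretches of its transcript. They were copied from the scanner files and run 5′ to 3′, with the EquCab1 position the files give. Capitals mark the longest run that a probe shares, on either strand, with a probe of another gene name on the array, except in *CASQ1*, where they mark consecutive GAT or GAC triplets. Of *RYR1*, a probe near the start and a probe near the end of the transcript are shown because they gave different ratios.
*CACNA1S*, chr30:18328141-18329401: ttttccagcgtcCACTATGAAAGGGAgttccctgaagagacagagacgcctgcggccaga
*CACNB1*, chr11:21838492-21841020: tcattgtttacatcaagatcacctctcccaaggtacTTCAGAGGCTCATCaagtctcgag
*CACNG1*, chr11:12799534-12799593: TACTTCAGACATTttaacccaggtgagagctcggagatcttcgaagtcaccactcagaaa
*RYR1*, start, chr10:9512808-9512867: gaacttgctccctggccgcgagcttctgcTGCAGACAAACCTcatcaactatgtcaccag
*RYR1*, end, chr10:9601207-9601411: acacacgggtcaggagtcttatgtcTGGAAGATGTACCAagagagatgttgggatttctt
*TRDN*, chr10:65477222-65477281: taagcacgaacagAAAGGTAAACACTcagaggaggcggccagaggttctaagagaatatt
*CASQ1*, chrUn:172315975-172316034: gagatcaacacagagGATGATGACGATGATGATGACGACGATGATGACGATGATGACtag
*CASQ2*, chr5:30606405-30607456: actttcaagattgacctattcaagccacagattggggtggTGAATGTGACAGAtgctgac
*JPH1*, chr9:12323772-12323831: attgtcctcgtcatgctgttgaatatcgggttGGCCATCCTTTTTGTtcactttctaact
*ATP2A1*, chr13:7297714-7297773: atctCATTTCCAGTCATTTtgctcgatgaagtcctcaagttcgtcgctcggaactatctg
The probes of *CACNG1*, *TRDN*, *JPH1*, *ATP2A1*, *CASQ1* and the *RYR1* start lie within 60 bases of the genome, whereas those of *CACNA1S*, *CACNB1*, *CASQ2* and the *RYR1* end span 1261, 2529, 1052 and 205 bases. The files do not say which exons these are. Runs shared with another gene's probe were short, between 13 and 15 bases in the 10 probes shown (*CASQ1* included). Whole transcripts and inexact matches were not compared, so binding of the probes to other RNAs was not tested. In *CASQ1* 14 triplets in a row, or 42 of 60 bases, were GAT or GAC, so this probe is almost a simple repeat.

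Coupling genes were lower in the HMB-treated group. Of the 6 genes found by symbol, 5 were called lower, 0 were called higher, and *ATP2A2* was not called. With the genes named by description, 9 of 10 were called lower, where 27.3% of the 8319 symbols tested by their brightest probe were called, 17.2% lower and 10.0% higher. A probe could be tested on its control channel alone, which favours calls of a fall. Where both channels had to be well above background, 6 of 7 testable genes were called lower, against 14.7% of all probes so filtered. By probe, 10 of the 11 found by symbol, and 20 of all 24 tested, were called lower, against the 16.4% of all tested probes. These probes are not independent measurements, since 5 of *ATP2A1* and 5 of *RYR1* overlap each other. Of the 20 called probes, 12 had an HMB-treated signal well above background on all 4 arrays. The median log2 ratio of the 10 genes was −0.83, and that of all tested probes was −0.07. On the 4 arrays in turn, the median of the 10 genes was −1.13, −0.88, −0.61 and −0.88, so it was below 0 on each.

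**Figure D1:**
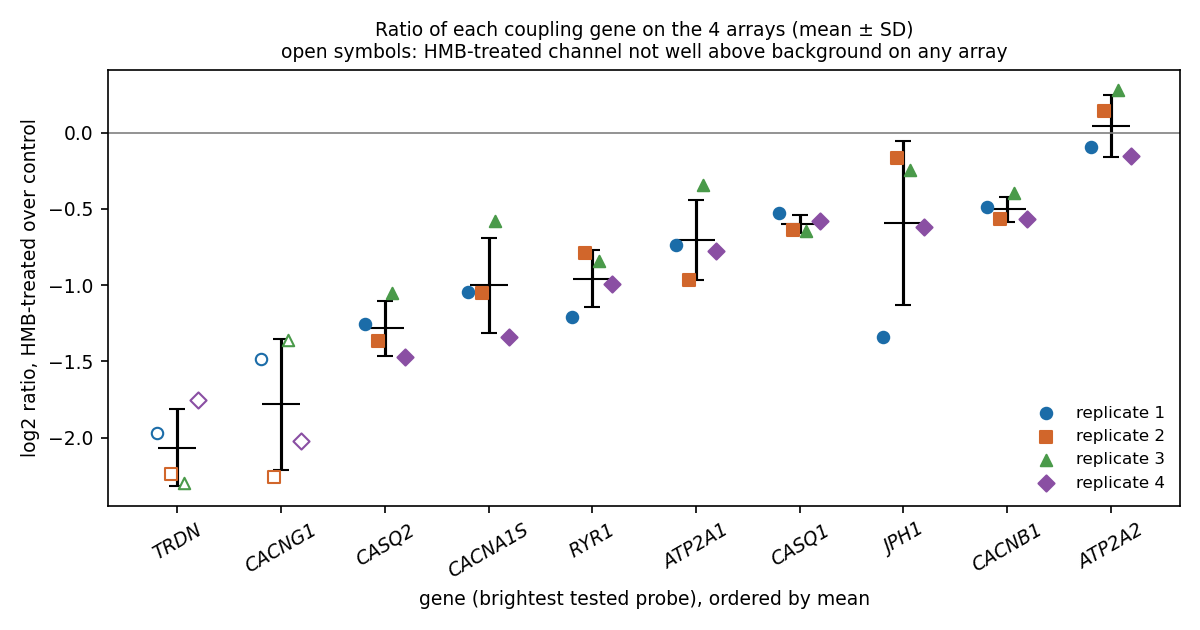
Log2 ratio of HMB-treated over control (vertical axis) for the brightest tested probe of each of the 10 genes, ordered by mean. Symbols are the 4 arrays, bars are mean ± SD, and open symbols mark genes whose HMB-treated channel was not well above background on any array. 9 genes lie below 0 on all 4 arrays, and *ATP2A2* lies on both sides of 0.

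The voltage sensor complex was represented by 3 subunits, and all 3 were called lower. For *CACNA1S*, the pore-forming subunit that senses voltage, the brightest probe gave 185, 159, 169 and 153 in the control channel on replicates 1 to 4. In the HMB-treated channel the same spots gave 89.8, 76.5, 114 and 60.7. Every HMB-treated signal lay below every control signal. The mean log2 ratio was −1.0 ± 0.31 (SD, n = 4), an FC of 2.0 with adjusted p = 0.00125 in limma, and replicate 3 fell least (−0.58). A second *CACNA1S* probe, further from the end of the transcript, had a ratio of −0.89 ± 0.77 (adjusted p = 0.0362), but its HMB-treated signal was well above background on 1 array only. The third was dim in both channels and was not tested.

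The cytoplasmic β1 subunit *CACNB1*, which brings the channel to the membrane, had the smallest mean fall among the called genes. Its control signals were 462, 497, 585 and 426, and its HMB-treated signals were 329, 336, 445 and 288. The channels overlapped between arrays, since replicate 3 was bright in both, but the ratio was below 0 on each array. It was −0.50 ± 0.08 (FC 1.42, adjusted p = 0.00142), with values between −0.56 and −0.39. The γ1 subunit *CACNG1*, found almost only in skeletal muscle, was faint. Its control signals of 37.2, 35.9, 38.0 and 32.2 were well above background on all 4 arrays, whereas its HMB-treated signals of 13.3, 7.51, 14.8 and 7.92 were not on any. The measured ratio of −1.78 ± 0.43 is therefore given as a bound, at least 1.48-fold lower with HMB (adjusted p = 0.000352). The bound sets the mean control signal against the dimmest signal that counted as above background on each array. It holds for background-subtracted signals only, and the p-value is limma's for the measured ratio. With other background methods the fall was smaller than the bound, as given below.

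**Figure D2:**
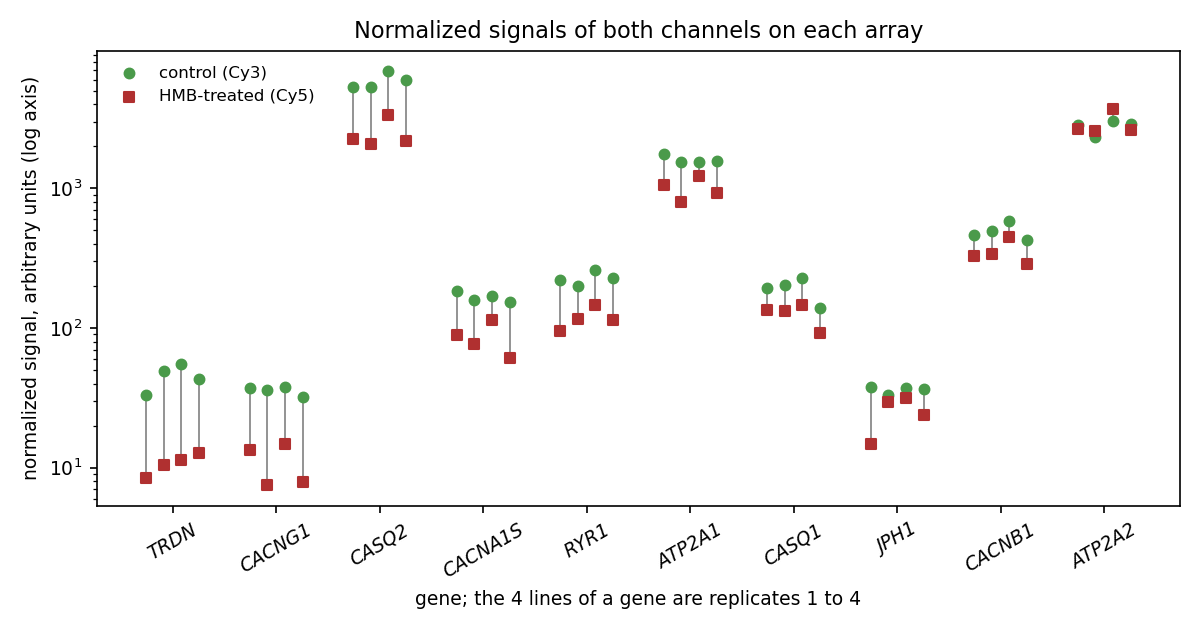
Normalized signal of the brightest tested probe of each gene in both channels, on a log axis in arbitrary units. Each vertical line joins the control (circle, Cy3) and HMB-treated (square, Cy5) signals of 1 array, for replicates 1 to 4 from left to right. The squares lie below the circles for 9 genes, and for *ATP2A2* they lie above on replicates 2 and 3. Signals of different probes are not comparable as levels of the genes.

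The release channel *RYR1* had 17 probes along its transcript, and they did not all give the same ratio. At the brightest, near the end of the transcript, the control signals were 220, 201, 260 and 227, and the HMB-treated signals were 95.3, 116, 145 and 114. The groups did not overlap. The mean log2 ratio was −0.96 ± 0.19 (FC 1.94, adjusted p = 0.000372). All 6 tested probes that start between bases 14587 and 14903 were called lower, with means between −1.20 and −0.94. These 6 are not independent, because 5 of them start between bases 14865 and 14903 and overlap each other.

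The 3 tested *RYR1* probes that start between bases 1187 and 1868 had means of −0.25, −0.20 and −0.09 and were not called. Their signals were between 37.5 and 105 in the control and between 29.9 and 87.3 in the HMB-treated channel, and for 1 of them the HMB-treated signal was well above background on only 2 arrays. The mean of the end probes minus that of the start probes was −1.02, −0.67, −0.79 and −0.97 on replicates 1 to 4, on average −0.87 ± 0.16, so the end probes fell further on each array. The exact two-sided sign-flip test gave p = 0.13, the smallest value that 4 arrays allow, and the split into start and end was chosen after the values had been seen. The other 8 probes, which lie between bases 2845 and 7415, were not well above background on all 4 arrays in either channel and were not tested. The probe at base 2845 was well above background on 1 array only. On replicate 4 it gave 94.9 in the control and 92.3 with HMB.

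**Figure D3:**
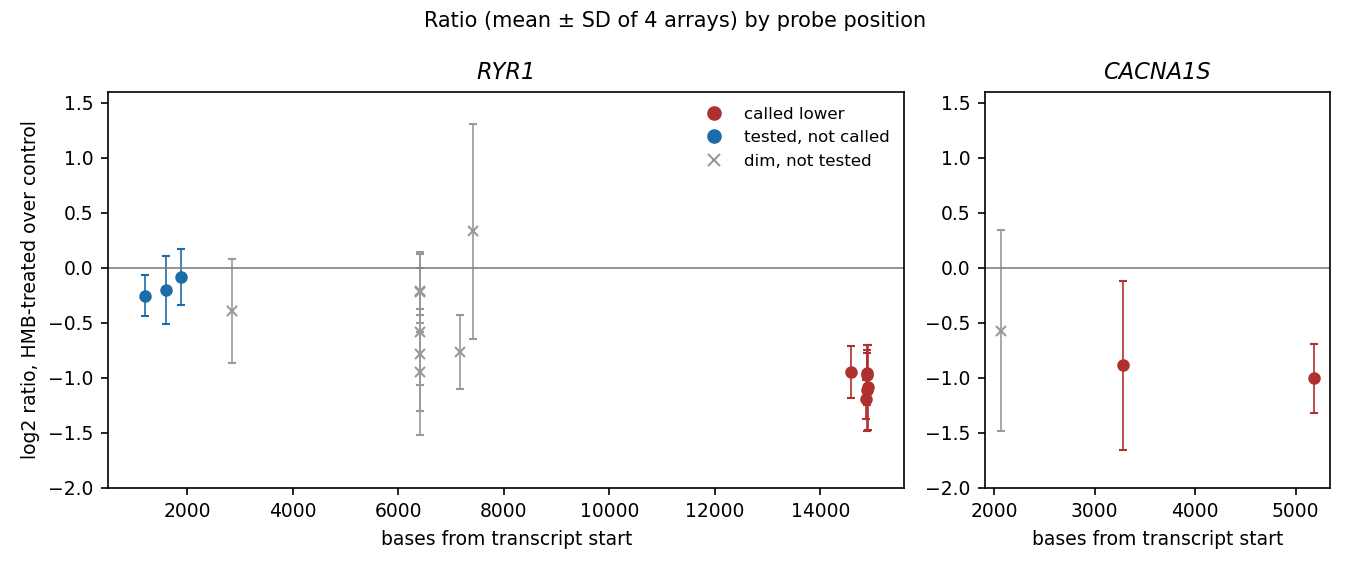
Mean log2 ratio ± SD over 4 arrays of each *RYR1* and *CACNA1S* probe (vertical axis) against the distance of the probe's first base from the transcript start (horizontal axis). Red circles are probes called lower, blue circles were tested and not called, and grey crosses were too dim to be tested. The *RYR1* probes near the end of the transcript lie between −1.20 and −0.94, and the 3 blue probes lie between −0.25 and −0.09.

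Triadin (*TRDN*), which anchors calsequestrin to the release channel, was called lower on a faint probe. The control signals were 33.0, 49.1, 55.6 and 43.1, all well above background, and the HMB-treated signals of 8.42, 10.4, 11.3 and 12.8 were not. The measured ratio was −2.07 ± 0.25, with arrays between −2.3 and −1.76. As a bound on background-subtracted signals, *TRDN* was at least 1.85-fold lower with HMB (adjusted p = 3.53e-05 in limma for the measured ratio). This bound is under the measured fold of *CASQ2*, so the place of *TRDN* among the 10 genes is not settled.

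Both calsequestrins were called lower, and the ratio of *CASQ2* was the lower one on each array. *CASQ2*, the form of heart and slow fibres, had control signals of 5364, 5331, 6881 and 6003 and HMB-treated signals of 2253, 2073, 3327 and 2170. The HMB-treated signals all lay below the lowest control signal. The ratio was −1.28 ± 0.18 (FC 2.43, adjusted p = 0.000107), and each array lay between −1.47 and −1.05. *CASQ1*, the form of fast fibres, went from 195, 205, 229 and 138 in the control to 135, 131, 146 and 92.3 with HMB. Replicate 4 was dim in both channels, and the ratios were the tightest of the 10 genes, −0.60 ± 0.06 (FC 1.51, adjusted p = 0.000588). The *CASQ1* ratio minus the *CASQ2* ratio was 0.73, 0.72, 0.40 and 0.89 on replicates 1 to 4, on average 0.68 ± 0.20. It was positive on all 4 arrays, with p = 0.13 in the exact two-sided sign-flip test and 0.19 after correction over the 3 pairs of genes compared, so the test could not have passed 0.05. The *CASQ1* probe is the near-repeat shown above.

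Junctophilin 1 (*JPH1*), which bridges the t-tubule and the reticulum, was lower but poorly measured. Of its 3 probes, only 1 was tested. The control signals were 37.5, 33.3, 37.1 and 36.5, and the HMB-treated signals were 14.8, 29.7, 31.4 and 23.8, well above background on 2 arrays. The fall came mostly from replicate 1, where the ratio was −1.34, against −0.17, −0.24 and −0.62 on replicates 2 to 4. The mean was −0.59 ± 0.54 with adjusted p = 0.0452, and without replicate 1 it was −0.34 with adjusted p = 0.0578. It was not called without replicate 3 (adjusted p = 0.0688) or 4 (0.107) either, nor by the methods' t-test (adjusted p = 0.189).

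Of the pumps of the reticulum, *ATP2A1* was called lower and *ATP2A2* was not. *ATP2A1*, the pump of fast fibres, had control signals of 1774, 1550, 1544 and 1580 at its brightest probe and HMB-treated signals of 1066, 794, 1218 and 924. All 4 HMB-treated signals lay below the lowest control signal, and replicate 3 again fell least (−0.34). The ratio was −0.70 ± 0.26 (FC 1.63, adjusted p = 0.00287). Another 5 *ATP2A1* probes start at neighbouring bases of another transcript and share 56 of their 60 bases, so they are 1 measurement repeated. All 5 were called lower, with means between −0.90 and −0.61, but their control signals were between 36.6 and 73.5, and their HMB-treated signal was well above background on 1 to 4 arrays.

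*ATP2A2*, the pump of slow fibres, heart and most other cells, had control signals of 2841, 2352, 3053 and 2905 and HMB-treated signals of 2656, 2592, 3705 and 2614. The groups overlapped, with HMB higher on replicates 2 and 3 and lower on replicates 1 and 4. Its ratio was 0.04 ± 0.20 (adjusted p = 0.722), and it turned to −0.04 without replicate 3 and to −0.45 when the arrays were scaled to spike-in RNA. The *ATP2A1* ratio minus the *ATP2A2* ratio was −0.64, −1.11, −0.62 and −0.62, on average −0.75 ± 0.24. *ATP2A1* was thus the lower on every array, with an exact two-sided p of 0.13 (0.19 corrected). In the third pair, the voltage sensor and the release channel, *CACNA1S* minus *RYR1* was −0.04 ± 0.30 (exact p = 0.875) and ranged from −0.35 to 0.26.

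Ordered by mean measured ratio, the genes ran from *TRDN*, *CACNG1*, *CASQ2*, *CACNA1S*, *RYR1*, *ATP2A1*, *CASQ1*, *JPH1* and *CACNB1* to *ATP2A2*. Compared on the same arrays, 3 of the 9 pairs of neighbours kept their order on all 4. *CACNB1* was below *ATP2A2* by 0.55 ± 0.17, *CACNG1* below *CASQ2* by 0.50 ± 0.30 and *CASQ2* below *CACNA1S* by 0.28 ± 0.15. Each had p = 0.13 in the exact two-sided sign-flip test, the smallest value it allows. The pairs were formed from these same means and picked for the same sign on all 4 arrays. This fixed the p-value beforehand, so it gives no support for the order. The ranges over the arrays overlapped for 8 of the 9 pairs, the last 2 of these 3 included. The other 6 pairs changed order on at least 1 array. The positions of *TRDN* and *CACNG1* rest on signals at background.

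The size of the fall depended on how background was treated. Feature Extraction subtracts it, and with normexp and an offset of 50 followed by loess, the 5 calls by symbol became 1 (*ATP2A1*) and the 9 became 4, where 6.46% of all probes were still called lower. Under that setting the ratios of *TRDN* and *CACNG1* were −0.33 and −0.24, those of *RYR1* and *CACNA1S* moved from −0.96 to −0.48 and from −1.0 to −0.49, and that of the bright *CASQ2* was −1.19. *RYR1*, *CACNA1S* and *CASQ2* were called under all 19 alternatives, whereas limma's treat did not call *ATP2A1*, *CACNB1* and *JPH1*. The use of the deposited ratios and the keeping of marked spots are among the 19 and could not move these ratios.

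**Figure D4:**
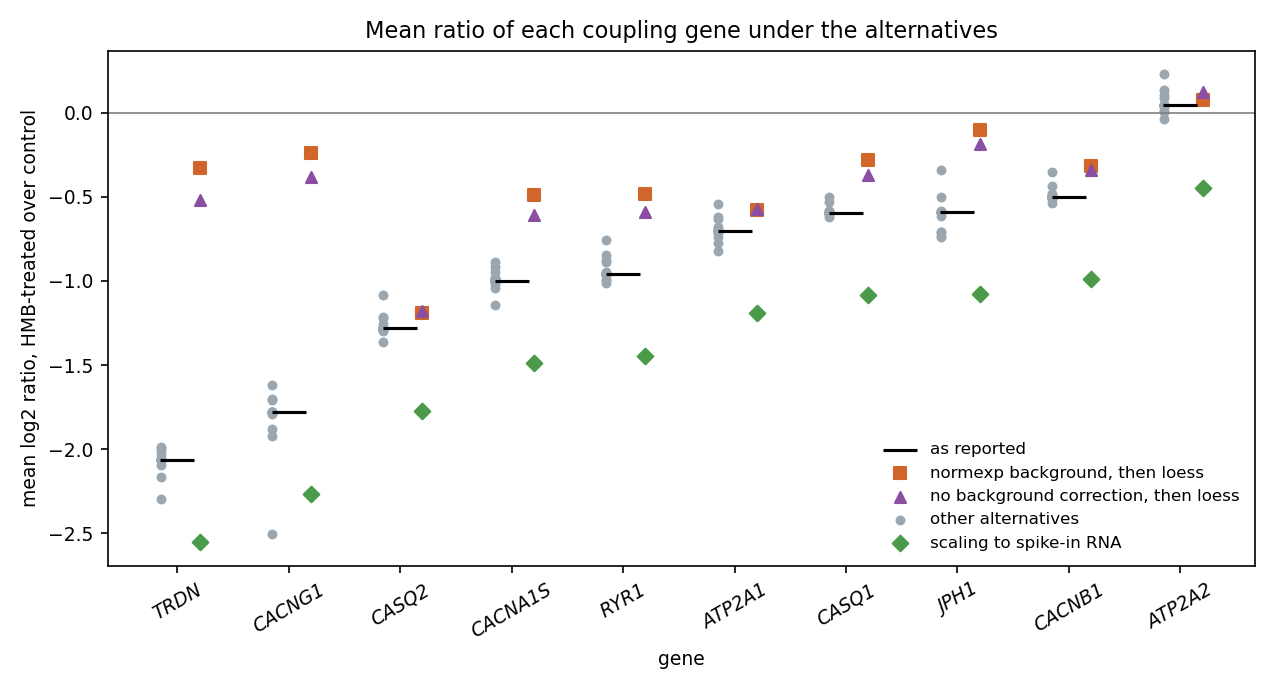
Mean log2 ratio of each gene as reported (black bar) and under the processing alternatives. Grey points are other tests, filters, normalizations and left-out replicates, orange squares and purple triangles change the background correction, and green diamonds scale to spike-in RNA. The faint genes *TRDN* and *CACNG1* move from near −2 to between −0.52 and −0.24 with the background methods, and *CASQ2* stays near −1.2.

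The cells' other RNAs moved too, and in bulk RNA fewer myotubes and less RNA per myotube cannot be told apart. Of the 12 skeletal muscle markers tested, 9 were called lower and 0 higher (median −0.84), from −1.67 ± 0.66 for the perinatal myosin *MYH8* to 0.32 ± 0.25 for the myogenic regulator *MYOD1*, which was not called. *MYOG* (0.03 ± 0.22) and *MYMK* (−0.09 ± 0.03) were not called either. The summed signal of the 12 was 342005 to 412533 in the control and 184631 to 268501 with HMB. *ACTC1* made up most of it, with 224091 to 287528 in the control and 140365 to 197784 with HMB. Of 8 fibroblast markers, 4 were called higher and 0 lower (median 0.30), from −0.23 ± 0.34 for *COL1A2* to 1.49 ± 0.26 for *PDGFRA*, with a summed signal of 532046 to 633207 in the control and 504135 to 792776 with HMB. *COL1A2* and *COL3A1* made up most of this sum. Of 6 leukocyte markers, 3 were tested and 2 were called higher, from *CD14* (0.20 ± 0.19) to *CD68* (0.88 ± 0.20). The summed signal of the tested markers was 15824 to 20146 in the control and 19283 to 30888 with HMB. Most of it came from *PTPRC*, whose brightest probe gave 12172 to 15755 in the control and 15157 to 24719 with HMB.

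Smooth muscle markers were lower in 1 of 2 tested (*ACTG2* −0.90 ± 0.18, *CNN1* −0.50 ± 0.52), with sums of 68176 to 83720 in the control and 35017 to 48910 with HMB. All 4 heart muscle markers were called lower, from *NPPA* (−1.42 ± 0.47) to *NPPB* (−0.74 ± 0.10), with sums of 9512 to 11827 and 4045 to 6460. None of the 5 endothelial and 4 adipocyte markers was bright enough to be tested. The part of the cell makeup in the fall of the coupling genes was not tested.

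Beyond the 10 genes, a list of 65 other coupling genes was examined. The array had a probe for 62 of them, and 43 were tested. Of these 20 were called lower, 2 were called higher and 21 were not called, with a median log2 ratio of −0.36. As for the 10 genes, the background was 17.2% lower and 10.0% higher. Where both channels had to be well above background, 37 of the listed genes were testable, with 16 called lower and 2 higher. Of all probes so filtered, 14.7% were called lower.

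Of 6 tested proteins of the store 3 were called lower, and of 4 tested pumps, exchangers and buffers 2 were. Phospholamban (*PLN*), which restrains the slow pump, measured −1.62 ± 0.27 on the only tested probe of 8, but with no HMB-treated signal above background. As a bound on background-subtracted signals, *PLN* was at least 1.64-fold lower (adjusted p = 0.000126 in limma for the measured ratio). Sarcalumenin (*SRL*), a calcium-binding glycoprotein of the reticulum, fell from 189, 179, 207 and 182 to 62.2, 75.1, 90.6 and 49.1. Its groups did not overlap, and its ratio was −1.48 ± 0.33. The junctional protein *JSRP1* was at least 1.37-fold lower by the same kind of bound, likewise with the HMB-treated channel at background. Its call was lost in 4 of 18 alternatives, among them the methods' t-test (adjusted p = 0.0719). The histidine-rich calcium-binding protein *HRC* was called lower at −0.59 ± 0.13. The chaperone *CALR* (0.10 ± 0.13) and the junctin gene *ASPH* (0.20 ± 0.11) were not called. Sarcolipin (*SLN*), which restrains the fast pump, had no matching probe. The sodium-calcium exchanger *SLC8A3* was called lower at −0.44 ± 0.29 on the only tested probe of 9. Its call was lost in 9 of 18 alternatives. They include the methods' t-test (adjusted p = 0.113) and leaving out replicate 2, 3 or 4.

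Of 10 tested partners of the release channel, 5 were called lower. *FKBP1B*, the immunophilin that binds the channel in heart, had a ratio of −0.56 ± 0.26, and all 3 of its probes were called. Its call was lost in 5 of 19 alternatives, among them the methods' t-test (adjusted p = 0.0633). *FKBP1A*, its relative that binds the skeletal channel, had a ratio of 0.22 ± 0.06 and was not called by its brightest probe, since its FC of 1.16 was under the threshold, while 2 of its 10 probes were called higher. Its ratio turned to −0.27 with scaling to spike-in RNA. The calcium sensor *S100A1* (−0.47 ± 0.18) and the scaffolds *HOMER1* (−0.52 ± 0.15), *HOMER2* (−0.45 ± 0.06) and *HOMER3* (−0.47 ± 0.10) were called lower. For *HOMER2*, 3 of 5 tested probes were called. The calls of *HOMER2*, *HOMER3*, *HOMER1* and *S100A1* were lost in 5, 4, 3 and 3 of 19 alternatives, in that order. The kinase *CAMK2A* was called lower at −1.01 ± 0.23.

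Genes of the triad structure and its counter-ion channels were called lower in 5 of 8 cases. The potassium channels *TMEM38A* and *TMEM38B*, which balance charge as calcium leaves the store, had ratios of −0.73 ± 0.14 and −1.03 ± 0.23. Ankyrin 1 (*ANK1*), an adaptor whose small muscle form lies in the reticulum membrane, gave −0.84 ± 0.05 with all 6 probes called. The mitsugumin gene *SYPL2* had a ratio of −0.69 ± 0.17. Junctophilin 2 (*JPH2*) was on the array but too dim to be tested.

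Of 5 tested genes around the voltage sensor, 2 were called lower, 1 was called higher and 2 were not called, with a median of 0.01. The α2δ1 subunit *CACNA2D1* (−0.94 ± 0.32) and the adaptor *STAC3*, needed to couple sensor and release channel in skeletal muscle, were called lower. *STAC3* gave 248, 237, 295 and 223 in the control and 132, 135, 170 and 119 with HMB, without overlap, and its ratio was −0.86 ± 0.06 (adjusted p = 0.000148). The subunit genes *CACNB3* (0.06 ± 0.24) and *CACNA1H* (0.01 ± 0.21) were not called. The *STAC3* relative *STAC* went the other way, with a ratio of 0.66 ± 0.39, and both of its probes were called higher. The call of *STAC* was lost in 7 of 19 alternatives, among them the methods' t-test (adjusted p = 0.0949), normexp, spike-in scaling and leaving out replicate 3 (adjusted p = 0.0546), with adjusted p between 0.00248 and 0.308 over all 19.

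Of 7 tested genes of store-operated entry and inositol trisphosphate receptors, 1 was called higher, 2 were called lower and 4 were not called, with a median of −0.16. The 1 called higher was *ORAI1*. *ORAI1*, the pore that refills an emptied store, had control signals of 246, 245, 256 and 216 and HMB-treated signals of 783, 750, 967 and 622. The HMB-treated signals were all above the highest control signal. The ratio was 1.68 ± 0.17 (FC 3.21, adjusted p = 2.95e-05). The other pore genes *ORAI2* (−0.16 ± 0.08) and *ORAI3* (−0.06 ± 0.15) were not called. The store sensor *STIM2* was called lower, with a ratio of −0.70 ± 0.04, and the other sensor, *STIM1*, had a ratio of 0.05 ± 0.16 and was not called. The inositol trisphosphate receptor *ITPR3*, another release channel, was called lower at −0.86 ± 0.24.

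**Figure D5:**
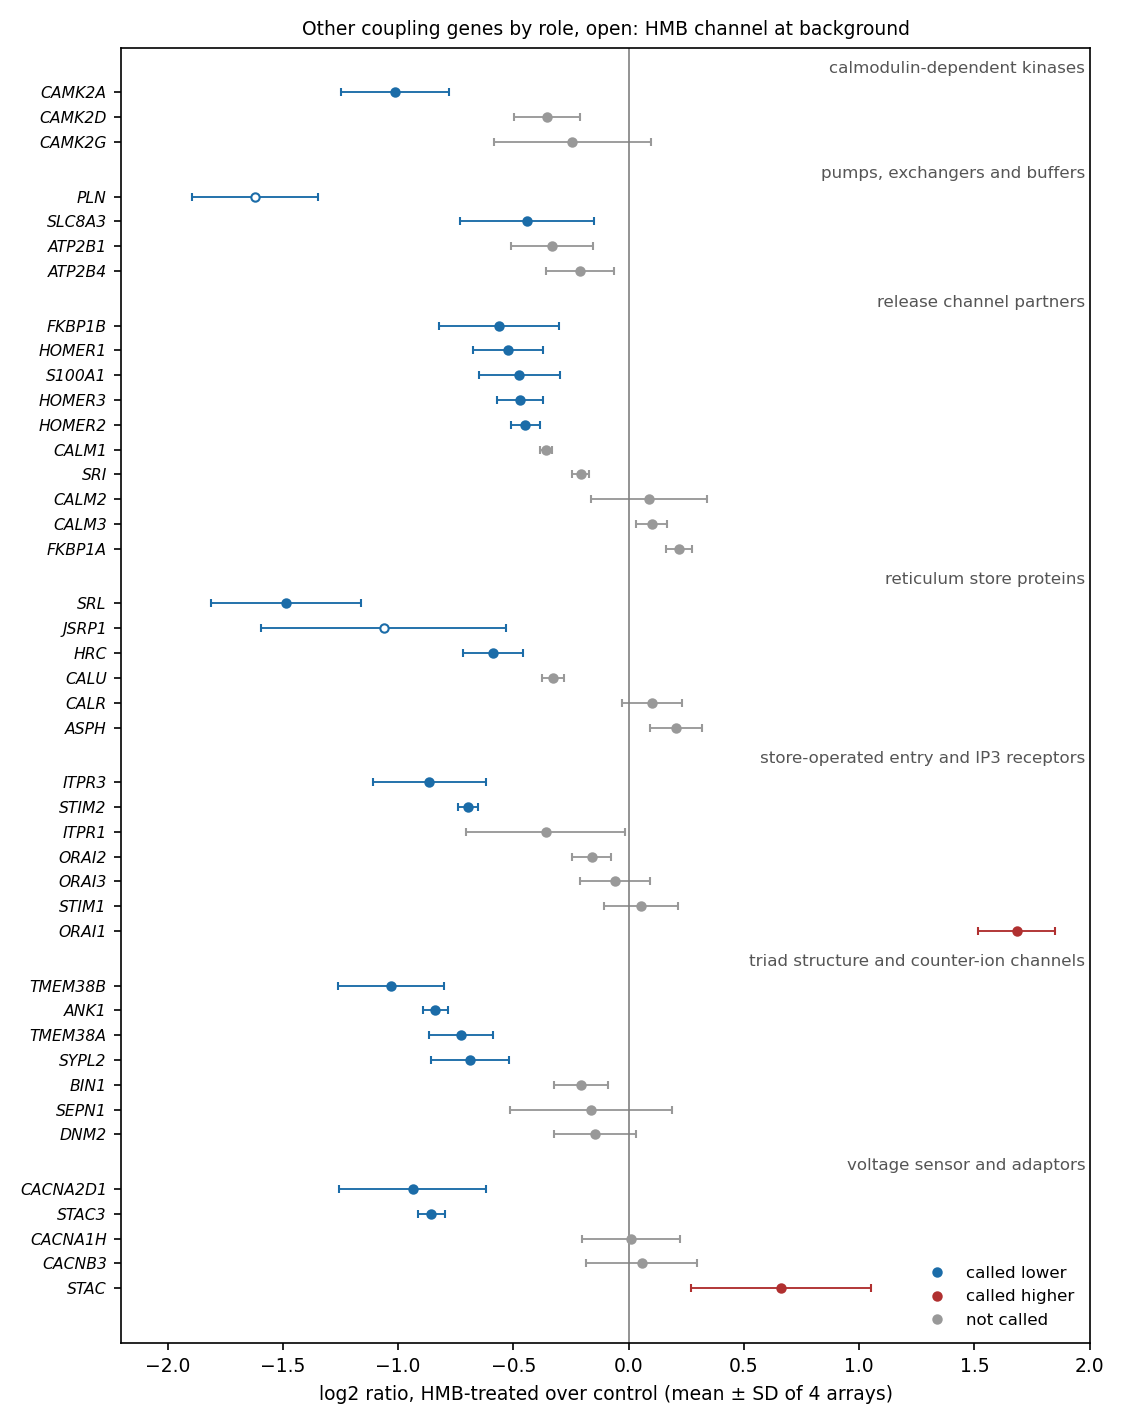
Mean log2 ratio ± SD over 4 arrays (horizontal axis) of 42 of the 43 tested genes of the list, each by its brightest tested probe and grouped by role. Blue points were called lower (19), red points higher (2) and grey points not called (21), and open points had an HMB-treated channel at background on all arrays. *ORAI1* lies near 1.7, alone on the right apart from *STAC*.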

How the data were processed

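RNA of HMB-treated (Cy5) and control (Cy3) equine satellite cells was hybridized together on 4 Agilent horse arrays of 1 slide. The authors' scanner files hold the intensity of each spot, which Feature Extraction (version 10.10.1.1 in the file headers) had background-subtracted and normalized linearly and by lowess within each array. The deposited log10 values are ratios of Cy5 over Cy3. A table deposited beside them repeats these log10 ratios to within 3.96e-05. Log2 ratios were calculated here by a change of base from the deposited log10 ratios. Dim signals carry large errors, and some at background had been replaced by a surrogate. This was so for the HMB-treated signal of *CACNG1* and that of *PLN*, on 1 array each.

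The tests were run in R 4.3.3 with limma 3.58.1 and data.table (version 1.17.8). Control and marked spots were left out, and no spot of the 35 probes was marked or saturated. Probes were tested where at least 1 channel was well above background on each of the 4 arrays. The test was an intercept model with empirical Bayes moderation and the Benjamini-Hochberg correction over 24669 probes, with calls at an adjusted p of at most 0.05 and an FC of at least 1.3. A gene was given by its brightest tested probe, and pairs of genes by exact sign-flip tests over the arrays. The genes named are the 10 members and the called genes of the list of 65 with the same sign on all arrays. *STAC3*, *JSRP1*, *FKBP1A*, *SLN* and *JPH2* are named too, with the highest and lowest marker of each list. *PAX7*, *MYOG*, *MYMK*, *ACTC1*, *COL3A1*, *PTPRC*, *ASPH*, *CALR*, *STIM1*, *ORAI2*, *ORAI3*, *CACNB3* and *CACNA1H* were added after their values had been seen. The counts include 1 called gene of the list of 65 that is not reported by name here. The members, lists and alternatives were chosen with earlier results of these data known. Genes of the list of 65 were matched by symbol or description. Promoter motifs and protein sequences were not used here.

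The alternatives were other tests (limma's treat and the methods' t-test), moderation, array weights, background corrections, normalizations, filters, probe choices and left-out replicates, plus scaling to spike-in RNA, which was added after the data had been seen. On simulated data with 24669 probes, limma recovered 165 of 200 changed probes (82.5%) with 6 false calls. The simulated noise was normal and independent between arrays, without dye, shared-control or background errors. Its false calls therefore do not measure such errors in these data. The number of arrays limits the precision.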

Additional observations from a re-analysis of the deposited data

Results flagged for a closer look

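In 4 of 50 sets of 4 values examined, 1 array stood apart from the other 3, measured as its gap to the nearest value over the whole range (above Dixon's limit at 95%), where chance gives about 1 in 20. For the difference between *ATP2A1* and *ATP2A2* the share was 0.964, since replicate 2 was at −1.11 and the others between −0.64 and −0.62. For *FKBP1A* it was 0.888 (replicate 4 at 0.13, the others between 0.24 and 0.26). For *ANK1* it was 0.864 (replicate 1 at −0.76, the others between −0.87 and −0.86). For *STIM2* it was 0.852 (replicate 1 at −0.76, the others between −0.68 and −0.67).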

How the results depend on the processing

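With treat, whose null is an FC of up to 1.3, 3 genes found by symbol (of 5), 5 of their probes (of 10) and 14 other coupling genes (of 22) were called. With normexp these counts were 1, 1 and 8, and 4 of the 10 genes were called, against 9. With no background correction they were 3, 3 and 12. With both channels well above background, 3 of 4 testable genes and 4 of 5 testable probes found by symbol were called. With the genes named by description it was 6 of 7. Scaling to spike-in RNA, chosen after seeing the data, moved the median of all probes from −0.07 to −0.56 and called 70.2% of them lower, and median centring without lowess moved it to 0.07. With spike-in scaling 40 of the other coupling genes were called, 39 of them lower. *ATP2A2* changed sign with it (−0.45) and without replicate 3 (−0.036, with a range of −0.036 to 0.11 over the left-out replicates), and *FKBP1A* changed sign with it (−0.27). Both were still above the shifted median. Leaving out 1 replicate gave 5 genes by symbol throughout, 8 to 10 probes, 8 to 9 of the 10 genes, and 21 to 23 other coupling genes. The difference of *ATP2A1* and *ATP2A2* then ranged from −0.79 to −0.63, that of *CASQ1* and *CASQ2* from 0.62 to 0.78, and that of *CACNA1S* and *RYR1* from −0.15 to 0.056 (0.028 without replicate 2, 0.056 without replicate 4). *JPH1* lost its call in 10 of 18 alternatives, *CACNB1* in 4 of 19 and *CASQ1* in 2 of 19. In no alternative did a called coupling gene of the 10 change direction. The test on ratios within arrays is itself paired, so no further block was fitted. The causes were not tested. Genes at background in the HMB-treated channel (*TRDN*, *CACNG1*, *PLN*, *JSRP1*) have only a bound, on background-subtracted signals. With normexp or no background correction their ratios lay between −0.52 and −0.15, smaller falls than these bounds.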
